A study of Mus musculus with 20 samples.

Results

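A set of 31 genes for lysosomal enzymes, membrane proteins, V-ATPase subunits and TFEB was followed here, out of 18193 genes that the array's probe table names. Members were chosen by name, with earlier results of these data known. Each was read from the probe set with the highest mean log2 level. Of the 31, 30 were measured, and Cd63, a membrane tetraspanin, is unnamed in the probe table used here and was not analysed here. They comprised 10 proteases, 6 glycosidases, 6 lipid or thioester hydrolases, activators and granulin, 4 membrane proteins, 3 V-ATPase subunits and the transcription factor Tfeb. Each of the 30 probe sets lay above the floor of 16 on all 20 arrays, so no member was lost to a filter on dim signal.

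The lysosome is the acidic compartment in which cells break down proteins, complex sugars and lipids. Its soluble hydrolases work on material delivered by endocytosis, phagocytosis and autophagy, membrane glycoproteins line its wall, and a proton pump called the V-ATPase keeps its interior acid. In liver, hepatocytes use it for autophagy and lipoprotein breakdown, and Kupffer cells, the resident macrophages, use it for what they engulf. Transcription of many lysosomal genes is raised by TFEB and its relatives, which bind E-box sequences of the CACGTG type near their start sites.

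Livers of Scd1 knockout mice (KO, Scd1-/-) and Scd1+/+ wild-type mice (WT) were compared on a very low fat (VLF) diet, TD03045 from Harlan Teklad, and on chow. Scd1 encodes stearoyl-CoA desaturase, which makes monounsaturated from saturated fatty acids. The 4 groups were KO on the VLF diet, WT on the VLF diet, KO on chow and WT on chow, with 5 individual livers and 5 Mouse 430 2.0 arrays each. The animals' age and sex, the length of feeding and how the knockout was made were not stated in the labels used here. Normalized intensity below is the deposited intensity after scaling and quantile normalization, and log2 changes are given as estimate ± standard error of the limma fit. A member is said to have risen or fallen only where limma's adjusted p, by Benjamini-Hochberg over 45037 probe sets, was under 0.05.

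Array-wide values were as follows. Normalized Scd1 was 27.1 to 36.9 in KO VLF livers and 16841 to 20341 in WT VLF livers, and 29.1 to 57.8 in KO chow livers and 6493 to 10421 in WT chow livers, so the genotype labels were borne out on every array. Hepatocyte markers were bright on all arrays, with Alb between 23249 and 24356. The ratio of 3' to 5' actin signal, a measure of RNA integrity, was 1.69 to 1.96 in KO VLF livers, 1.95 to 2.39 in WT VLF livers, 2.10 to 2.37 in KO chow livers and 2.49 to 3.07 in WT chow livers. It moved with the groups, and its part in the results below was not tested. Replicate 3 of the KO chow livers correlated least with its own group (mean r = 0.984, against up to 0.993 for other arrays). Without it, the count of members called was 24 for KO versus WT on the VLF diet (23 with it), 0 on chow (2 with it), 22 for the diet in KO livers (22 with it) and 19 for the interaction (20 with it). With 5 livers per group the number of arrays limits the precision, and p-values set each change against the spread of livers within the 4 groups.

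Promoter windows of the members were searched for the E-box letters that TFEB is known to bind. RefSeq windows of build GRCm38.p6, from 250 bases before to 50 bases after the annotated start, were matched by symbol for 27 of the 31 members, and Atp6v0d2, Atp6v1b2, Ctsb and Ctsh had none. The 6 windows below are examples. Ctsd, Gla and Lamp1 rose and hold several E-boxes, as does Ctsa, whose window is not shown. Mcoln1 holds E-boxes without having been called, and Lgmn and Ctsz had the largest rises by the probe sets used. CACGTG is in capitals, and the sequence runs 5' to 3' along the gene's strand. Where a gene had several windows, the one with the most CACGTG matches is shown, and the other Lgmn window holds none.
Ctsd, chr7:142387778-142388077, minus strand: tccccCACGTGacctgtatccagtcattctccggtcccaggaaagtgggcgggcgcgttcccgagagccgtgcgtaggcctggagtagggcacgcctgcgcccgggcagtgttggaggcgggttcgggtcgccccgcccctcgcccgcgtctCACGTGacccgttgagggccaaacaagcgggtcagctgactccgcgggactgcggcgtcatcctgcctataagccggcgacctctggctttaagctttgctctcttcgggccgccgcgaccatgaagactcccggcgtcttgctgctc
Gla, chrX:134600956-134601255, minus strand: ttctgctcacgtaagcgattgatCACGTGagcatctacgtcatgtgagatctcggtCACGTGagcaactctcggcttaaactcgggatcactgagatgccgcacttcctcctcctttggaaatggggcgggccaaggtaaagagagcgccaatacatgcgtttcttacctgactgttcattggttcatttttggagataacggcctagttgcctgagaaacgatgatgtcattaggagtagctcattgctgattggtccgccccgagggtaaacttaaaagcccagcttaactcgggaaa
Lamp1, chr8:13158911-13159210, plus strand: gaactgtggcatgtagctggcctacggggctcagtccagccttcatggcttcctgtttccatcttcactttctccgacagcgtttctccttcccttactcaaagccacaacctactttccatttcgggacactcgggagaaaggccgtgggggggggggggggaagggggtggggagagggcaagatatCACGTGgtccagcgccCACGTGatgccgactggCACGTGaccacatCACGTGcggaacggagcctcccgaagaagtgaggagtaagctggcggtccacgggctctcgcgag
Mcoln1, chr8:3500269-3500568, plus strand: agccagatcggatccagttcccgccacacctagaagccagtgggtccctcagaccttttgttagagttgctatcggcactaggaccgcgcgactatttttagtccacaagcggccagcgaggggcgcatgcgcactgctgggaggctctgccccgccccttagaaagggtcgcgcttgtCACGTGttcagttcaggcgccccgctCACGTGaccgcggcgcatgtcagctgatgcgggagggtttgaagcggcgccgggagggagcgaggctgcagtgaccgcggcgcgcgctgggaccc
Lgmn, chr12:102439043-102439342, minus strand, 1 of its 2 windows: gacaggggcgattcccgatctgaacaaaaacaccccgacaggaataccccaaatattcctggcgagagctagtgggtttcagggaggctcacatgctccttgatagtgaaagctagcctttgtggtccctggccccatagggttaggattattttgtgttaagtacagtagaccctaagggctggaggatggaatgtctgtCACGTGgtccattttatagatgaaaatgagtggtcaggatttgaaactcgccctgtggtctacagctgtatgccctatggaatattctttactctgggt
Ctsz, chr2:174438990-174439289, minus strand: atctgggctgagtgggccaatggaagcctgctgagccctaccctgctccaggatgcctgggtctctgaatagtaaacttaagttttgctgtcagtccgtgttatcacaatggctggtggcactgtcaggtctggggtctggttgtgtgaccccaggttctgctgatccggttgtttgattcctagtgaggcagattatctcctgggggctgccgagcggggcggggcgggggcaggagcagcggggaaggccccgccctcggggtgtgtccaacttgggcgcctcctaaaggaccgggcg

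CACGTG, which reads the same on both strands, was found in windows of 10 of the 27 members (37.04%), against 8.09% of 27025 genes in the RefSeq table and 8.91% of its 17492 protein-coding genes. The 10 were Atp6v1a, Ctsa, Ctsd, Ctsl, Gla, Glb1, Lamp1, Lgmn, Mcoln1 and Naglu. The longer palindrome TCACGTGA, which contains the first motif, was found in 5 members (18.5%), Atp6v1a, Ctsa, Ctsd, Gla and Mcoln1, against 1.12% of genes. The consensus called CLEAR, searched as that palindrome with G before and C after it, was in 0 of the 27 members and in 0.37% of genes. TGACNNNGC, the core of the antioxidant response element searched on both strands, was in 8 members (29.6%) and 13.99% of genes. Of the measured members with windows, CACGTG stood in 8 of the 17 that rose in KO livers on the VLF diet. It stood in 0 of the 4 that fell and 2 of the 5 that were not called. By the same split TGACNNNGC stood in 7 of the 17, 1 of the 4 and 0 of the 5. Cd63, which has a window but was not measured, is in neither split. These matches describe the letters of these windows and were not tested as binding sites.

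On the VLF diet, most hydrolases and V-ATPase subunits among the members were higher in KO livers, led by legumain, cathepsin Z and beta-glucuronidase. Acid lipase, 2 membrane proteins and Tfeb itself were lower. Of 24 further hydrolases, described further on, 8 rose, 4 fell and 12 were not called. In all, 19 of the 30 measured members rose, 4 fell and 7 were not called, where 42.1% of all genes were called in this comparison, 19.2% higher and 23% lower. The median log2 change of the 30 members was 0.42, against -0.02 over all 18193 genes. Groups did not overlap for 17 members that were higher and 2 that were lower, where the background was 14.6% and 15.5% of genes. Rises of at least 2-fold were seen for 3 members by the probe sets used, against 4.26% of genes. In whole liver, more cells of a type and more RNA per cell cannot be told apart, so these are changes of the tissue's RNA. In the same livers 16 of 18 macrophage and Kupffer cell markers rose, as detailed with the other marker lists further on, and their part in the members' changes was not tested.

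**Figure D1:**
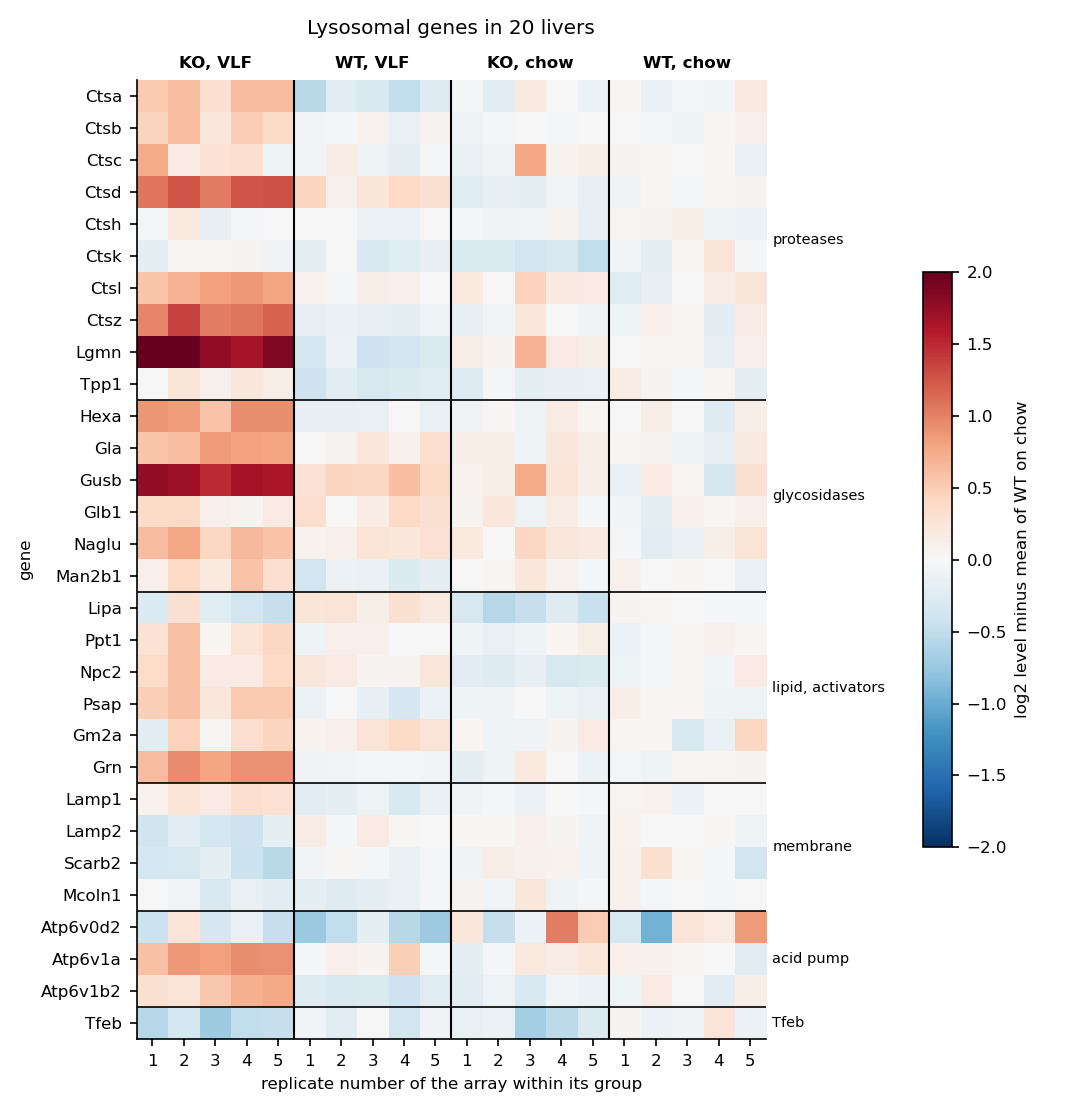
Log2 level of each of the 30 measured lysosomal genes (down the page, grouped by role) in each of the 20 livers (across, by group and replicate number), relative to the gene's mean in WT chow livers, where red is higher and blue lower. The red block in the 5 KO VLF columns covers most hydrolases and V-ATPase subunits, with Lgmn, Gusb and Ctsd darkest, while Lamp2, Scarb2 and Tfeb are blue there.

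Of the 10 proteases, 7 rose in KO livers on the VLF diet and 0 fell, with a median log2 change of 0.57. Legumain (Lgmn) is an asparaginyl endopeptidase that also matures cathepsins. Normalized intensity of Lgmn was 1232, 1199, 926, 852 and 980.3 in KO VLF livers, against 212, 251, 203, 207 and 222 in WT VLF livers. On chow Lgmn measured 296, 282, 439, 304 and 295 in KO livers and 270.1, 274, 279.7, 242 and 292 in WT livers. Every KO VLF liver was thus above every other liver, and 1 KO chow liver, replicate 3, stood above the other chow livers. The change on the VLF diet was 2.23 ± 0.12, or 4.70-fold (adjusted p = 6.67e-11, limma), the largest among the members by the probe sets used, and on chow it was 0.23 ± 0.12 (adjusted p = 0.261). A second Gla probe set, described below, gave 2.53 on the VLF diet.

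Cathepsin Z (Ctsz) is a carboxypeptidase prominent in macrophages. Ctsz reached 4326, 5583, 4442, 4592 and 4988 in KO VLF livers, against 1953, 2010.3, 1967, 1920.3 and 2068 in WT VLF livers. The chow livers held 1961, 2103, 2552, 2171 and 2083 in KO and 2056, 2361, 2257, 1899 and 2434 in WT. No KO VLF liver overlapped with any other, and the rise was 2.40-fold (1.26 ± 0.08, limma adjusted p = 7.36e-10). Its 3 probe sets gave log2 changes between 1.21 and 1.36.

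Ctsa, protective protein/cathepsin A, is a carboxypeptidase that also stabilizes neuraminidase and beta-galactosidase. Its intensity was 1229.9, 1302, 1076, 1319.5 and 1315 in KO VLF livers and 591, 740.5, 699.6, 610.1 and 722 in WT VLF livers. On chow it was 839, 744, 969, 863 and 791 in KO livers and 879, 788, 837, 831 and 974 in WT livers. KO VLF livers were above all other livers and WT VLF livers below all others. The KO change was 0.89 ± 0.08 on the VLF diet (limma adjusted p = 9.03e-08). A second, dimmer Ctsa probe set went the other way (-0.23 ± 0.09, adjusted p = 0.0489).

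Ctsd, the aspartic protease cathepsin D, measured 2752, 3155, 2713, 3163 and 3197 in KO VLF livers and 1769, 1389, 1555, 1739.9 and 1625 in WT VLF livers. In chow livers Ctsd was 1114, 1168, 1161, 1272 and 1172 in KO and 1251, 1353, 1276, 1337 and 1367 in WT. The VLF diet went with higher Ctsd in both genotypes, with no overlap between diets, and KO VLF livers were above all others. The KO change on the VLF diet was 0.89 ± 0.06 (limma adjusted p = 4.11e-09), and on chow -0.16 ± 0.06 (adjusted p = 0.150).

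Tpp1, tripeptidyl peptidase 1, was 988, 1174, 1059, 1163 and 1087 in KO VLF livers and 745, 851, 800.5, 823 and 841 in WT VLF livers. On chow Tpp1 was 835, 971, 873, 891 and 902 in KO livers and 1100.4, 1039, 971, 1018 and 869 in WT livers. The KO VLF values lay wholly above the WT VLF values but overlapped with WT chow livers, and all WT VLF livers were below all WT chow livers. Its change was 0.43 ± 0.06 (limma adjusted p = 2.52e-05). Cathepsin K (Ctsk), a collagenase best known from osteoclasts, was dim, at 58.6, 68.5, 67.3, 68.8 and 63.1 in KO VLF livers and 58.8, 66.4, 53.6, 56.2 and 59.6 in WT VLF livers. On chow Ctsk was 54.1, 54.7, 51.4, 52.9 and 47.4 in KO livers and 63.9, 57.7, 67.5, 79.1 and 65.6 in WT livers. The VLF groups overlapped (0.15 ± 0.07, adjusted p = 0.144), and each KO chow liver was below each WT chow liver.

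Cathepsins B and L, widely expressed cysteine proteases, also rose. Ctsb spanned 5524 to 7182 in KO VLF livers and 4294 to 4976 in WT VLF livers (0.44 ± 0.06, limma adjusted p = 8.64e-06). Ctsl spanned 6305 to 7773 in KO VLF livers and 4215 to 4611 in WT VLF livers (0.69 ± 0.09, adjusted p = 5.51e-06). Neither gene's groups overlapped on the VLF diet. Cathepsin C (Ctsc), which activates granule serine proteases, was not called (0.32 ± 0.15, 95% interval 0.01 to 0.64, adjusted p = 0.113), and neither was the aminopeptidase cathepsin H (Ctsh) (0.05 ± 0.06, 95% interval -0.09 to 0.18). Ctsc varied widely among KO livers, from 1918 to 3447 on the VLF diet and 1862 to 3543 on chow.

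**Figure D2:**
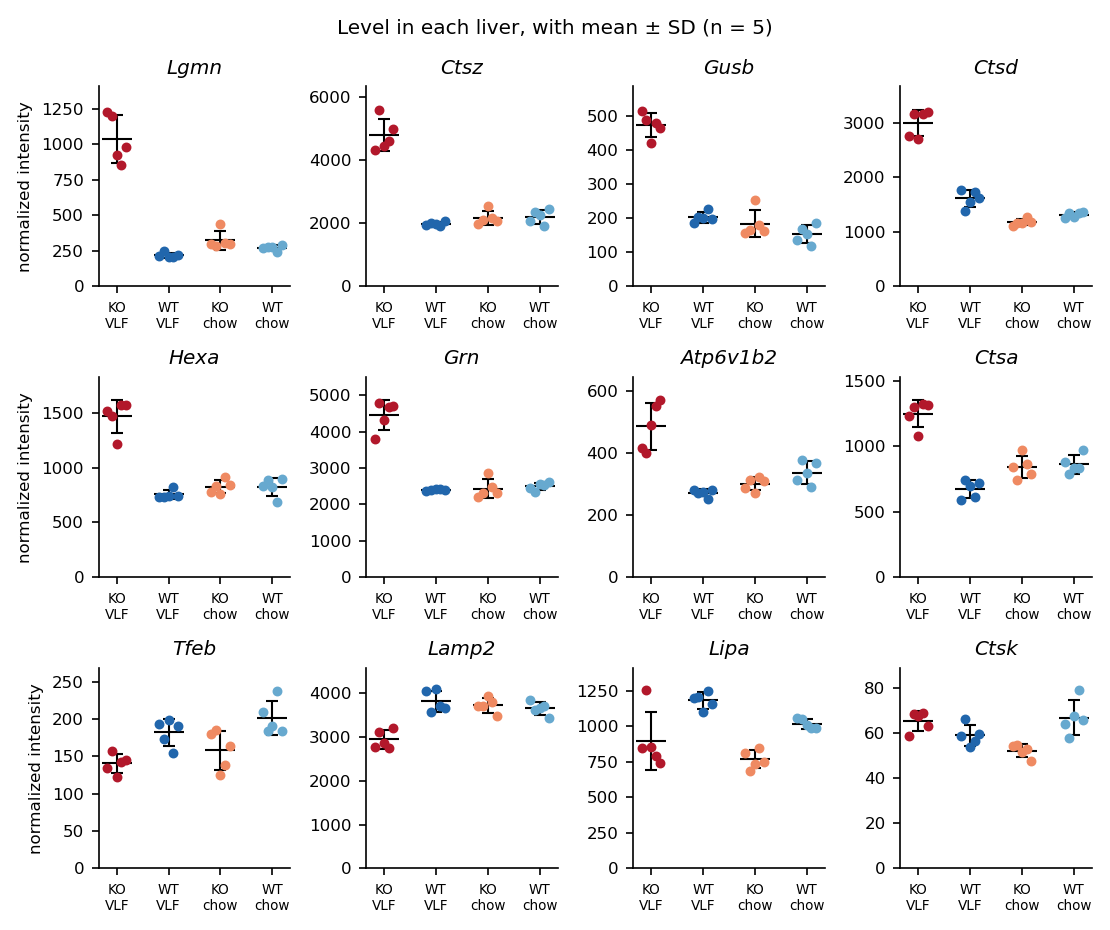
Normalized intensity (linear axis from 0) of 12 members in each liver, with the mean and SD of the 5 livers of a group as bars and the groups in the order KO VLF, WT VLF, KO chow and WT chow. Lgmn, Ctsz, Gusb, Ctsd, Hexa, Grn, Atp6v1b2 and Ctsa are highest in KO VLF livers, and Lamp2 is lowest there, with the highest KO VLF liver at 3212 and the lowest WT VLF liver at 3573.

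Of the 6 glycosidases, 5 rose in KO livers on the VLF diet and 0 fell, with a median log2 change of 0.56. Beta-glucuronidase (Gusb) removes glucuronic acid from glycosaminoglycans. Gusb was 515, 489, 421, 478 and 465 in KO VLF livers and 185, 203, 201, 228 and 197 in WT VLF livers. In chow livers Gusb was 158, 165, 252, 179.6 and 163 in KO and 135, 168, 152, 119.5 and 186 in WT. KO VLF livers stood clear of the rest, and replicate 3 of the KO chow livers was the highest chow liver. The rise was 2.34-fold (1.23 ± 0.12, limma adjusted p = 2.65e-07).

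Hexa encodes the alpha chain of hexosaminidase A, which trims GM2 ganglioside. It measured 1514, 1473, 1213, 1567 and 1567 in KO VLF livers, against 735, 735, 742, 828 and 741 in WT VLF livers. On chow it measured 781, 835, 764, 913 and 842 in KO livers and 829.7, 886, 825, 688 and 893 in WT livers. The lowest KO VLF liver was still above the highest liver of any other group, and the change was 0.95 ± 0.08 (limma adjusted p = 2.00e-08). Man2b1, lysosomal alpha-mannosidase, was 1988, 2436, 2108, 2739 and 2328 in KO VLF livers and 1419.5, 1704, 1679, 1525 and 1612 in WT VLF livers. Chow values of Man2b1 were 1842, 1905, 2139, 1928 and 1801 in KO and 1961, 1836, 1899, 1860.3 and 1679 in WT. The VLF groups did not overlap (0.54 ± 0.08, adjusted p = 1.70e-05), whereas the KO VLF values overlapped with those of KO chow livers.

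Gla, alpha-galactosidase A, cleaves globotriaosylceramide. Its brightest probe set was dim, with 78.3, 81.2, 96.3, 93.5 and 92.3 in KO VLF livers and 53.1, 55.8, 62.2, 57.0 and 66.9 in WT VLF livers. On chow the same probe set gave 58.9, 57.9, 50.7, 62.1 and 58.1 in KO livers and 55.3, 55.3, 49.6, 47.7 and 60.7 in WT livers. KO VLF livers were above all others, and the change was 0.58 ± 0.08 (limma adjusted p = 1.21e-05). A second Gla probe set of nearly equal mean brightness gave a much larger change, 2.53 ± 0.16 on the VLF diet (adjusted p = 9.57e-10) and 0.82 ± 0.16 on chow (adjusted p = 0.0281). It averaged 233 ± 52.2 in KO VLF livers, 39.9 ± 5.81 in WT VLF livers, 54.6 ± 12.8 in KO chow livers and 30.8 ± 5.52 in WT chow livers (SD, n = 5 each). Both probe sets rose on the VLF diet, and which of them is brighter depends on whether deposited or normalized values are ranked.

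Naglu, the alpha-N-acetylglucosaminidase of heparan sulfate breakdown, spanned 189.9 to 244 in KO VLF livers and 149 to 174 in WT VLF livers (0.42 ± 0.09, limma adjusted p = 0.00124). Beta-galactosidase (Glb1) was the exception in this role group. It spanned 155 to 195 in KO VLF livers and 149.5 to 197 in WT VLF livers, with a change of -0.02 ± 0.09 (95% interval -0.21 to 0.16). With arrays centred on the spiked hybridization controls, however, Glb1 rose by 0.35 (adjusted p = 0.0266).

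Among the lipid and thioester hydrolases, activators and granulin, 4 of 6 rose in KO livers on the VLF diet and 1 fell, and their median log2 change was 0.24. Granulin (Grn) encodes progranulin, a secreted and lysosomal glycoprotein abundant in macrophages. Grn was 3809, 4785, 4318, 4684 and 4702 in KO VLF livers and 2383, 2404, 2431, 2428 and 2404 in WT VLF livers. On chow Grn was 2195, 2328, 2852, 2491 and 2314 in KO livers and 2439.6, 2356, 2556, 2535 and 2604 in WT livers. WT VLF livers were nearly identical to each other, all KO VLF livers lay above every other liver, and the change was 0.88 ± 0.07 (limma adjusted p = 6.21e-09).

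Prosaposin (Psap) is cut into the saposins, which present sphingolipids to their hydrolases. It reached 2756, 2981, 2320.4, 2845 and 2831 in KO VLF livers and 1820.2, 1973, 1769, 1561 and 1833 in WT VLF livers. Chow livers had 1870.1, 1877, 1997, 1839 and 1812 in KO and 2165, 2019, 2037, 1858 and 1838 in WT. KO VLF livers were again above all others (0.62 ± 0.07, limma adjusted p = 9.35e-07). Ppt1, palmitoyl-protein thioesterase 1, was 254, 311, 212, 249 and 274 in KO VLF livers and 195, 222, 221, 207 and 205 in WT VLF livers. On chow Ppt1 was 194, 186, 196, 213 and 224 in KO livers and 191, 202, 211, 221 and 211 in WT livers. Its groups overlapped on the VLF diet, with KO replicate 3 among the WT values, and the rise was small (0.30 ± 0.08, adjusted p = 0.00682).

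Lipa, lysosomal acid lipase, frees cholesterol and fatty acids from endocytosed lipoproteins, and it was lower in KO livers on both diets. Lipa was 843, 1252, 856, 791 and 738 in KO VLF livers, against 1200.4, 1208, 1096, 1247 and 1153 in WT VLF livers. On chow Lipa was 814, 687, 737, 848 and 749.7 in KO livers, against 1058, 1048, 1005, 983 and 984 in WT livers. Replicate 2 of the KO VLF livers exceeded every WT VLF liver, the other KO VLF livers were below all of them, and the chow groups did not overlap. The change was -0.42 ± 0.10 on the VLF diet (limma adjusted p = 0.00301) and -0.41 ± 0.10 on chow (adjusted p = 0.0430). Its other probe sets also fell, by 0.55 and 0.44 on the VLF diet and by 0.64 and 0.56 on chow. The fall on the VLF diet was not called with median scaling alone (-0.29, adjusted p = 0.0527).

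Npc2 carries cholesterol within the lysosome. It spanned 1234 to 1654 in KO VLF livers and 1147 to 1283 in WT VLF livers, and its rise of 0.19 ± 0.07 was at the limit of the test (limma adjusted p = 0.0468, 0.00430 to 0.133 over 32 alternatives, 17 of which ended the call). Gm2a, the GM2 activator that works with hexosaminidase, did not pass (-0.01 ± 0.13, 95% interval -0.29 to 0.27), with 773 to 1239 in KO VLF livers and 942 to 1171 in WT VLF livers.

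The membrane proteins divided: 1 of 4 rose in KO livers on the VLF diet, 2 fell and 1 was not called. Lamp1 and Lamp2 are the heavily glycosylated proteins that line the lysosomal membrane. Lamp1 was 3318, 3765, 3533, 3985 and 3849 in KO VLF livers and 2734, 2798, 2941, 2556 and 2876 in WT VLF livers. On chow Lamp1 was 3015, 3075, 2918, 3155 and 3070.2 in KO livers and 3203, 3305, 2927, 3191 and 3176 in WT livers. KO VLF livers were above all others and WT VLF livers tended to be the lowest, with a change of 0.41 ± 0.05 (limma adjusted p = 3.51e-06).

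Lamp2 ran the other way, at 2777, 3125, 2852, 2752 and 3212 in KO VLF livers and 4041, 3573, 4091, 3704 and 3662 in WT VLF livers. Chow livers had 3704, 3704, 3940.4, 3809 and 3479.9 in KO and 3854, 3620.1, 3669, 3709 and 3440.0 in WT. KO VLF livers were below all others, and the change was -0.37 ± 0.05 (limma adjusted p = 1.64e-05). The 4 Lamp2 probe sets, in order of brightness, gave log2 changes of -0.37, -0.06, 0.16 and -0.46, of which the first and last were called. Scarb2 (LIMP-2), a membrane protein that also acts as a sorting receptor, was 1123, 1139.5, 1246, 1064 and 983 in KO VLF livers and 1369.8, 1452, 1401, 1302 and 1394 in WT VLF livers. On chow Scarb2 was 1357, 1559.7, 1518, 1498 and 1347 in KO livers and 1514, 1773, 1449.5, 1389 and 1103 in WT livers. KO VLF livers were below all WT VLF livers (-0.32 ± 0.09, adjusted p = 0.0113). A dimmer Scarb2 probe set rose instead (0.42 ± 0.10, adjusted p = 0.00326), and the mean of both gave 0.051 (adjusted p = 0.715). With median scaling alone the brighter probe set's fall was not called (adjusted p = 0.115). The calcium channel Mcoln1 spanned 139 to 171 in KO VLF livers and 143 to 166 in WT VLF livers and was not called (0.02 ± 0.06, 95% interval -0.11 to 0.15).

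**Figure D3:**
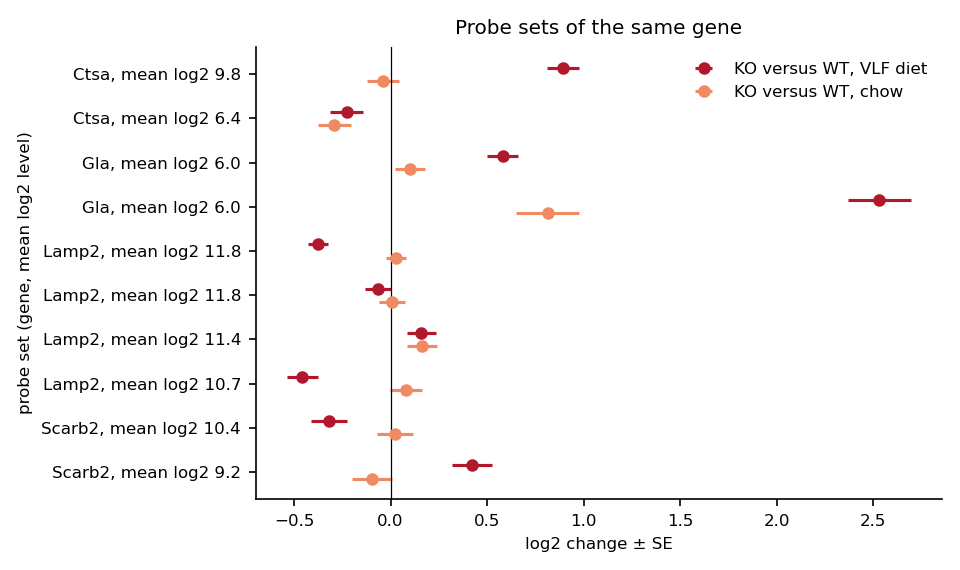
Log2 change (estimate ± standard error) of KO versus WT on the VLF diet (dark red) and on chow (orange) for each probe set above the floor of 4 members whose probe sets disagree, with its mean log2 level beside the gene name. The second Gla probe set lies at 2.53 against 0.58 for the first, and the probe sets of Ctsa and of Scarb2 lie on opposite sides of 0 on the VLF diet.

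Of the 23 members called on the VLF diet, 17 had other probe sets. Another probe set was called the same way for 14 of them and the opposite way for 2, Ctsa and Scarb2.

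Of the 3 V-ATPase subunits among the members, 2 rose in KO livers on the VLF diet. Atp6v1a is the catalytic A subunit and Atp6v1b2 the widely expressed B subunit of the ring that splits ATP. Atp6v1b2 was 416, 399.6, 488, 551 and 569 in KO VLF livers and 282, 272, 273, 251 and 282 in WT VLF livers. On chow it was 287, 312, 270.3, 323 and 309.7 in KO livers and 314, 377, 336, 290.2 and 366 in WT livers. Its KO VLF values exceeded those of all other groups, with a change of 0.82 ± 0.09 (limma adjusted p = 1.33e-06). Atp6v1a was 406, 496, 478, 515 and 511 in KO VLF livers and 266, 290.5, 280.3, 378 and 263 in WT VLF livers. Chow values of Atp6v1a were 236, 267, 311, 299 and 315 in KO and 291, 287, 279, 270.3 and 230.1 in WT. All KO VLF livers were above the rest, replicate 4 was the highest WT VLF liver, and the change was 0.71 ± 0.10 (adjusted p = 2.39e-05). Atp6v0d2, a membrane-sector subunit known from osteoclasts and macrophages, varied widely and was not called, with 145 to 237 in KO VLF livers and 119 to 175 in WT VLF livers (0.32 ± 0.29, 95% interval -0.29 to 0.92).

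Tfeb, the transcription factor, was 135, 157, 123, 143 and 145 in KO VLF livers and 193, 173, 199, 155 and 191 in WT VLF livers. On chow Tfeb was 180.4, 185, 125, 139 and 164 in KO livers and 209, 185, 190.3, 238 and 184 in WT livers. The VLF groups overlapped by 1 liver on each side, and the KO change was -0.37 ± 0.11 (limma adjusted p = 0.0116), with a change of similar size that did not pass on chow (-0.35 ± 0.11, adjusted p = 0.0714). Its RNA level says nothing of how much of the protein is in the nucleus, which is how TFEB is mainly controlled.

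The 4 falls depended on the scaling of the arrays. With arrays centred on the spiked hybridization controls, the median of all genes moved to 0.10, 23 members rose and 0 fell on the VLF diet, and the changes were -0.10 for Lipa (adjusted p = 0.885), -0.15 for Lamp2 (0.438), -0.02 for Scarb2 (1) and -0.0014 for Tfeb (1). Under the same setting Glb1, Mcoln1 (0.40, adjusted p = 0.0124), Ctsk (0.40, adjusted p = 0.0338) and Ctsc (0.53, adjusted p = 0.0493) gained calls as rises. Of the 19 rises, 18, all but that of Npc2, kept their call under each alternative that gave a value.

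On chow, the knockout went with little change in lysosomal genes. No member rose, 2 of 30 fell, Ctsk and Lipa, and 28 were not called, where 2.94% of all genes were called, 1.23% higher and 1.7% lower. The members' median log2 change was -0.01, against 0 over all genes, and changes ran from -0.41 to 0.26. Ctsk fell by 0.35 (limma adjusted p = 0.0306) and Lipa by 0.41 (adjusted p = 0.0430). Both calls were weak: 6 of 31 alternatives ended that of Ctsk and 18 of 32 that of Lipa, and 0 members were called without replicate 3 or 4 of the KO chow livers, or without replicate 1 or 4 of the WT chow livers. Lgmn, Gusb, Naglu and Ctsl, with log2 changes of 0.23, 0.26, 0.20 and 0.20, were the members with the highest values for KO over WT on chow besides Atp6v0d2, and none passed the test. Some rises and further falls were called under other settings. Naglu rose with median scaling alone (0.42, adjusted p = 0.0383) and with deposited values (0.36, adjusted p = 0.0495), and Gla rose as the mean of its probe sets (0.31, adjusted p = 0.0174) and by its second probe set. With only probe sets of a group mean of at least 100, Npc2 (adjusted p = 0.0401) and Tfeb (adjusted p = 0.0396) fell as well. Groups did not overlap for 3 lower members, Ctsk, Lipa and Npc2, and 0 higher ones, against 3.67% and 2.46% of genes.

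The interaction, the KO change on the VLF diet minus that on chow, was called for 20 of 30 members, higher for 19 and lower for Lamp2, where 24.2% of all genes were called, 12.1% in each direction. The members' median was 0.48, against 0 over all genes. By the probe sets used, the interaction was largest for Lgmn (2.00 ± 0.17, limma adjusted p = 9.07e-08), Ctsz (1.28 ± 0.11, adjusted p = 1.86e-07) and Ctsd (1.05 ± 0.09, adjusted p = 1.61e-07), and Lamp2 had -0.40 ± 0.07 (adjusted p = 0.000632). With the hybridization controls, where the median of all genes was 0.29, Lamp2 was at -0.07 (adjusted p = 0.846). For Lipa (-0.01 ± 0.14, 95% interval -0.32 to 0.29) and Tfeb (-0.02 ± 0.15, 95% interval -0.34 to 0.30) the KO change had about the same estimate on both diets. Naglu rose on the VLF diet without a called interaction (0.21 ± 0.13, adjusted p = 0.342), while Ctsk had one (0.50 ± 0.11, adjusted p = 0.00185) made of its fall on chow and its uncalled higher value on the VLF diet. Ctsc, Ctsh, Glb1, Gm2a, Scarb2, Mcoln1 and Atp6v0d2 were not called for the interaction, and the call of Ppt1 (adjusted p = 0.0491) was ended by 20 of 31 alternatives. Median scaling alone also ended the calls of Npc2 (adjusted p = 0.176, and 0.0789 with deposited values) and Ctsl (adjusted p = 0.0621), which left 18 members, 16 higher and 2 lower. Scarb2 was called lower with median scaling alone (-0.42, adjusted p = 0.0480) and with deposited values (adjusted p = 0.0461). The filter on group means (adjusted p = 0.0386) and the replicate block (adjusted p = 0.0320) gave the same call. These calls are of its brighter probe set. The dimmer Scarb2 probe set, which rose in KO livers on the VLF diet, was itself called for the interaction. Ctsh was called higher as the mean of its probe sets (0.30, adjusted p = 0.0290), and Naglu with the hybridization controls (0.58, adjusted p = 0.0407).

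**Figure D4:**
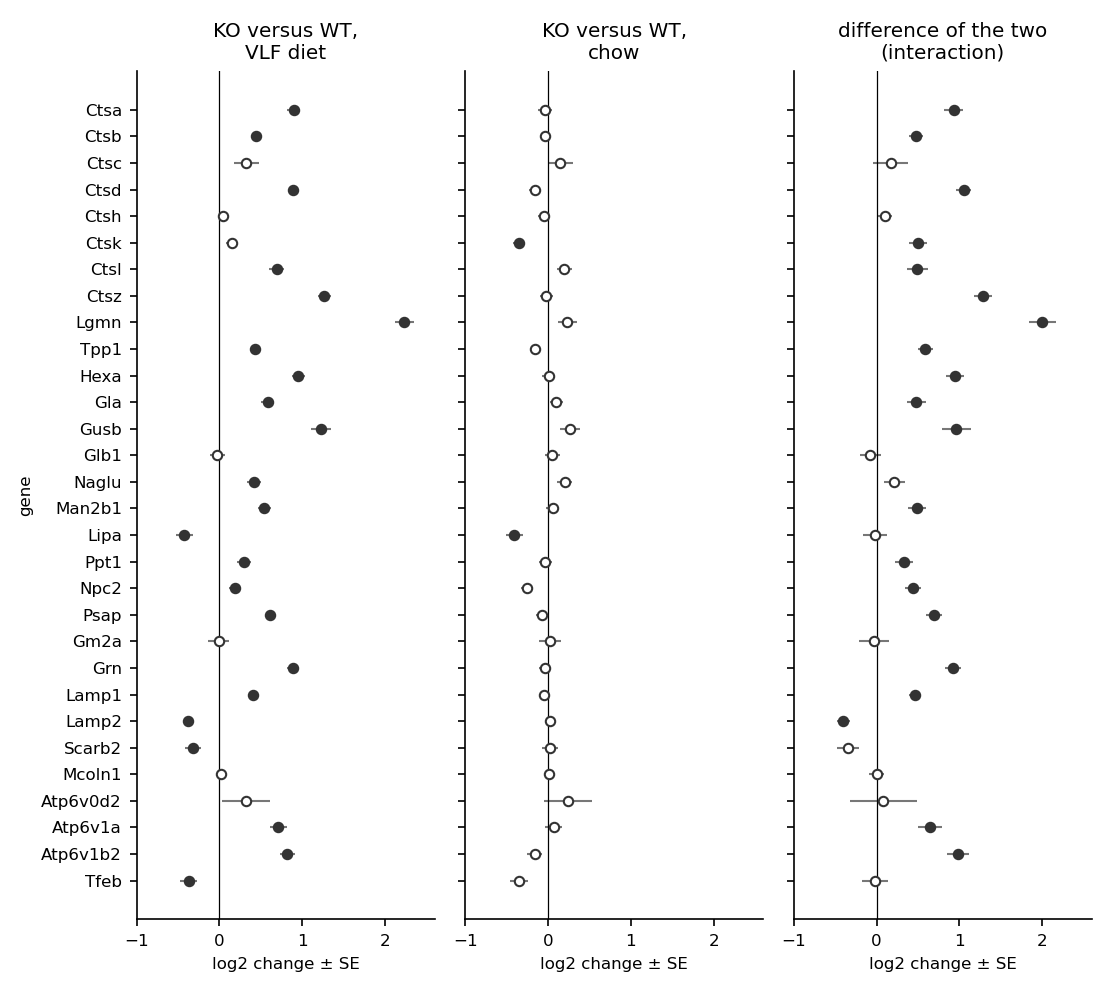
Log2 change (estimate ± standard error of the limma fit, 5 livers per group) of each member for KO versus WT on the VLF diet, KO versus WT on chow, and the difference of these changes, with filled points where the adjusted p was under 0.05. On the VLF diet 19 filled points lie right of 0 and 4 left of it, against 0 and 2 on chow.

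The VLF diet was set against chow within each genotype, and these comparisons share livers with those above. In KO livers 20 of 30 members rose with the diet and 2 fell, Lamp2 and Scarb2, where 34.7% of all genes were called, 17.1% higher and 17.7% lower. The median log2 change was 0.38, against 0 over all genes. By the probe sets used, rises of at least 2-fold were those of Lgmn (1.69 ± 0.12), Gusb (1.39 ± 0.12), Ctsd (1.34 ± 0.06) and Ctsz (1.14 ± 0.08), with limma adjusted p between 2.22e-11 and 5.94e-08, against 3.58% of genes. The risen members were the 19 that rose in KO versus WT livers on the VLF diet and Ctsk (0.32 ± 0.07, adjusted p = 0.00244). Npc2, weak in the comparison with WT livers, did not overlap here, at 1234 to 1654 in KO VLF livers and 879 to 985 in KO chow livers (0.59 ± 0.07, adjusted p = 3.14e-06). Lamp2 changed by -0.34 ± 0.05 and Scarb2 by -0.39 ± 0.09, which became -0.0027 and -0.028 with arrays centred on the hybridization controls, where the median of all genes was 0.27 and Glb1, Lipa and Gm2a also rose, by 0.58, 0.58 and 0.56. As the mean of its probe sets Scarb2 was at -0.0078. The rise of Man2b1 (0.26 ± 0.08, adjusted p = 0.0137) was ended by 4 of 32 alternatives, namely median scaling alone, deposited values, the mean of all probe sets and a fit of only the groups compared (adjusted p up to 0.102). All 4 Lamp2 probe sets fell with the diet in KO livers, by 0.34, 0.31, 0.21 and 0.53, whereas the dimmer Scarb2 probe set rose by 0.38 (adjusted p = 0.00890).

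In WT livers 3 of 30 members were called for the diet, where 1.57% of all genes were called, 0.786% higher and 0.781% lower. Ctsd rose (0.29 ± 0.06, limma adjusted p = 0.0360), and Ctsa (-0.36 ± 0.08, adjusted p = 0.0412) and Tpp1 (-0.30 ± 0.06, adjusted p = 0.0271) fell. The members' median was -0.05, against 0 over all genes. Ctsd therefore moved with the diet in both genotypes, by 1.34 in KO livers and 0.29 in WT livers, whereas Ctsa and Tpp1 moved in opposite directions, by 0.57 and 0.29 in KO livers. Without replicate 1, 3 or 4 of the WT VLF livers, or replicate 1 or 4 of the WT chow livers, 0 members were called. Gusb had a larger estimate than Ctsd (0.43 ± 0.12) that did not pass (limma adjusted p = 0.115). It was called with only probe sets of a group mean of at least 100 (adjusted p = 0.0432). Without replicate 3 of the KO chow livers it was called as well (adjusted p = 0.0350).

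Other genes of the lysosomal system on the VLF diet were read from lists of further hydrolases, membrane and sorting proteins, V-ATPase subunits, TFEB relatives and regulators, and autophagy genes. These lists, like the marker lists below, were chosen with earlier results of these data known. Their counts stand against 19.2% of all genes called higher and 23% called lower. Risen and fallen genes made up 85.7% and 7.14% of the V-ATPase list, 33.3% and 16.7% of the hydrolases, 43.8% and 25% of the membrane and sorting proteins, 38.5% and 15.4% of the TFEB relatives and regulators, and 52.6% and 26.3% of the autophagy genes. The shares of fallen genes in the hydrolase, membrane, TFEB and autophagy lists lay near that of all genes. The V-ATPase subunits moved together: 12 of 14 rose in KO livers and 1 fell, with a median log2 change of 0.54. They included Atp6v0e (0.90 ± 0.06), Atp6v1e1 (0.63 ± 0.06) and Atp6ap2, an accessory subunit also known as the prorenin receptor (1.22 ± 0.09), with limma adjusted p of 2.27e-09, 7.41e-08 and 7.26e-09. Atp6v0a2 fell (-0.20 ± 0.07, adjusted p = 0.0411), a call that median scaling alone, the deposited values and the hybridization controls each ended, and the remaining subunit, Atp6v1b1, the isoform of kidney epithelia, was not called (-0.12 ± 0.07). On chow 0 of these subunits rose and 1 fell, the accessory subunit Atp6ap1 (-0.25 ± 0.06, adjusted p = 0.0416). Atp6v1b1 and Atp6ap1 were singled out after their values were seen.

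Of 24 further hydrolases measured, 8 rose, 4 fell and 12 were not called, with a median of 0.13. Cathepsin S (Ctss, 2.12 ± 0.10, limma adjusted p = 2.82e-11), a protease of antigen-presenting cells, the sialidase Neu1 (1.14 ± 0.06) and arylsulfatase A (Arsa, 1.40 ± 0.12) rose. The iduronate sulfatase Ids (-0.64 ± 0.08), the glycogen-degrading alpha-glucosidase Gaa (-0.43 ± 0.07) and cathepsin O (Ctso, -0.55 ± 0.10) fell. With arrays centred on the hybridization controls the list gave 15 rises and 0 falls, with median scaling alone 13 and 3, and with deposited values 12 and 3. On chow 0 of these hydrolases rose and 2 fell, Gaa (-0.30) and Dnase2a (-2.24), both given here after their values on chow were seen. On the VLF diet no KO change of this list was below -0.64. For the diet in WT livers 0 of the list rose and 2 fell, where 1.57% of all genes were called. Of these falls 1 was at least 2-fold, and the lowest change was -2.35.

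Of 16 further membrane and sorting proteins, 7 rose and 4 fell, with a median of 0.15. Both mannose 6-phosphate receptors, which carry new hydrolases to the lysosome, rose (Igf2r 0.64 ± 0.08, M6pr 0.52 ± 0.06, limma adjusted p = 2.87e-06 and 3.40e-06), as did the membrane protein Tmem192 (0.45 ± 0.06). The Ragulator subunit Lamtor2 (-0.59 ± 0.06), the cholesterol exporter Npc1 (-0.61 ± 0.08, adjusted p = 1.17e-05) and the lipid transporter Abca2 (-0.47 ± 0.09) fell. No fall of this list was called with the hybridization controls, where 8 genes rose.

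Among 13 TFEB relatives and regulators, 5 rose and 2 fell. Rragd, a Rag GTPase that recruits mTORC1 to the lysosome and is itself a target of the TFEB family, rose (1.93 ± 0.08, limma adjusted p = 3.66e-12), and so did Rragc, another Rag GTPase (0.56 ± 0.07). Rragd was 57.9 to 70.8 in KO VLF livers and 16 to 19.3 in WT VLF livers, and since it lay at the floor of 16 on 11 of 20 arrays, the size of its change depends on the floor. Mitf, a relative of TFEB, rose (0.82 ± 0.08, adjusted p = 2.01e-07). The calcineurin subunit Ppp3cb (-0.63 ± 0.08) and the folliculin partner Fnip2 (-0.65 ± 0.18) fell. The remaining relatives, added after their values were seen, were Tfec, known from macrophages, which rose (1.01 ± 0.15, adjusted p = 2.48e-05), and Tfe3, which was not called (0.09 ± 0.08). With median scaling alone, deposited values or the hybridization controls, 8 genes of this list rose.

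The autophagy genes changed in both directions, with 10 of 19 rising and 5 falling. Sqstm1, the cargo receptor p62, rose (1.50 ± 0.16, limma adjusted p = 6.10e-07), as did the tethering subunit Vps11 (0.49 ± 0.07) and the Atg8 relative Gabarap (0.36 ± 0.05). The conjugating enzyme Atg3 (-0.97 ± 0.06, adjusted p = 4.15e-10), Gabarapl1 (-0.84 ± 0.09) and the initiating kinase Ulk1 (-0.68 ± 0.08) fell. With the hybridization controls 12 rose and 2 fell.

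**Figure D5:**
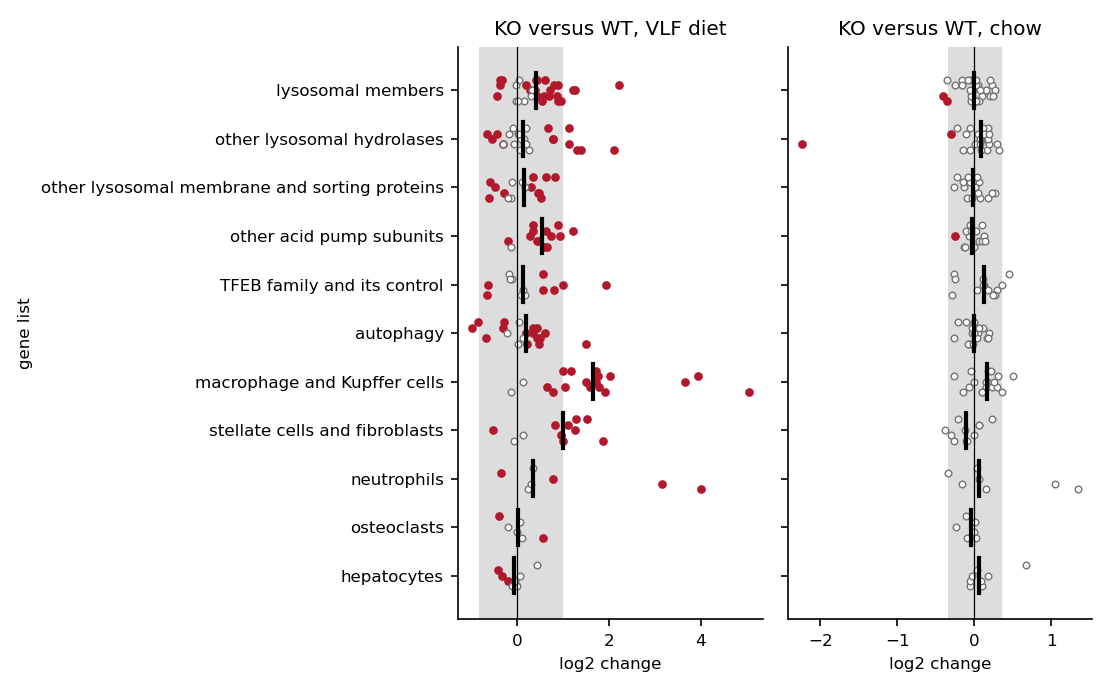
Log2 change of each measured gene of the member list, 5 further lysosomal and autophagy lists and 5 cell type marker lists, for KO versus WT on the VLF diet (left) and on chow (right), with red points for adjusted p under 0.05 and open points otherwise, a black bar at each list's median and a grey band holding the middle 90% of 16187 measurable genes, which runs between -0.80 and 0.97 in the left panel and between -0.33 and 0.35 in the right. Macrophage markers lie furthest to the right on the VLF diet, and the single point far left on chow is Dnase2a.

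Markers of macrophages and of stellate cells mostly rose with the members on the VLF diet, whereas smaller shares of neutrophil, osteoclast and hepatocyte markers rose. The counts called stand against 19.2% of all genes called higher and 23% called lower. Of 18 markers of macrophages and Kupffer cells, 16 rose in KO livers, 13 of them at least 2-fold, with a median log2 change of 1.65, and the list kept 16 or 17 rises under each scaling tried. Their summed normalized intensity was 23449 to 34066 in KO VLF livers, 7968 to 9435 in WT VLF livers, 9419 to 13714 in KO chow livers and 9434 to 10483 in WT chow livers. Replicate 3 of the KO chow livers, which was high in Lgmn, Gusb, Ctsc and Ctsl, had the highest sum among chow livers. Among markers picked after their values were seen, Adgre1, which encodes F4/80, and the Kupffer cell lectin Clec4f had smaller changes (0.79 ± 0.16 and 0.66 ± 0.18) than Cd14 (5.05 ± 0.30) and Gpnmb (3.93 ± 0.18), the mannose receptor Mrc1 was not called (-0.13 ± 0.09), and Itgam lay at the floor on 17 of 20 arrays.

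Stellate cell and fibroblast markers rose in 8 of 11 cases and fell in 1, with sums of 6071 to 7952 in KO VLF livers, 3032 to 4135 in WT VLF livers, 3245 to 3929 in KO chow livers and 3444 to 4211 in WT chow livers. Neutrophil markers rose in 3 of 7 cases and fell in 1, with sums of 890.0 to 5042 in KO VLF livers, 335 to 402 in WT VLF livers, 378 to 1234 in KO chow livers and 342 to 412 in WT chow livers. The sum of 5042 was that of KO VLF replicate 1, and the next highest KO VLF liver was at 1543. Of 6 osteoclast markers 1 rose and 1 fell (16.7% each), with sums of 1131 to 1579 in KO VLF livers, 831 to 1027 in WT VLF livers, 989 to 1074 in KO chow livers and 1042 to 1129 in WT chow livers, and the calcitonin receptor Calcr lay at the floor on all 20 arrays. Acp5, at 632 to 1348 over all arrays, made up most of the osteoclast sums. Hepatocyte markers rose in 0 of 8 cases and fell in 3, with sums of 105200 to 110397 in KO VLF livers, 108751 to 112239 in WT VLF livers, 107284 to 112986 in KO chow livers and 105344 to 109318 in WT chow livers. Over all arrays Alb was 23249 to 24356, Ttr 18834 to 22054 and Apoa1 20994 to 23249, and these made up most of the hepatocyte sums. Quantile normalization makes the highest intensities alike between arrays, so these sums could hardly differ and do not measure hepatocyte content. On chow 0 genes of these 5 marker lists were called, where 2.94% of all genes were called. The part of these cell types in the results was likewise not tested.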

How the data were processed

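Liver RNA of 20 mice was measured on Mouse 430 2.0 arrays, 5 per group. The deposited values are linear intensities. Per the submitters' processing notes they come from MAS5 and RMA, and which of them gave these values, and in what version, was not given in the sources used here. Control probe sets (64 of 45101) were left out. The deposited intensities were scaled so that all arrays had one median, raised to a floor of 16 where lower, taken to log2 and quantile normalized. The 9118 probe sets never above the floor were not used to model the variance, and counted as not significant in the adjustment.

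Group means were fitted over all 20 arrays with limma 3.58.1 in R 4.3.3, and p-values were adjusted by Benjamini-Hochberg over 45037 probe sets. Of these, 34945 name 1 gene, 932 several and 9160 none in the probe table. Every member was named with its call, with values on all arrays for up to 4 per role group with the largest called change on the VLF diet and for those called on chow, for the diet in WT or falling anywhere. Each further lysosomal list was represented by up to 3 called genes each way with the smallest adjusted p. Members, lists and this rule were chosen with earlier results of these data known. Replicate numbers were checked for pairing: same-numbered arrays correlated at -0.25 to 0.27 in their deviations from group means, so they were not paired. Alternatives covered scaling, floor, filter, probe set choice, variance model, replicate block and leaving out each array, and ranking probe sets on deposited values was added after seeing the data. Only the limma step was run on simulated data, with independent noise, so that run does not cover the scaling, floor or quantile normalization. Background correction from scanner files and scan batches were not analysed here.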

Additional observations from a re-analysis of the deposited data

Results flagged for a closer look

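In 7 of 120 groups of 5 livers, 1 liver stood apart by Dixon's test, which chance gives in about 5% of groups. Low livers were replicate 5 of the WT chow group for Ctsc (normalized intensity 1890.5) and replicate 3 of the KO VLF group for Hexa (1213). High livers were replicate 3 of the KO chow group for Lgmn (439) and Gusb (252), replicate 2 of the KO VLF group for Lipa (1252), and replicate 4 of the WT VLF group for Hexa (828) and Atp6v1a (378). Replicate 3 of the KO chow group also had the highest macrophage marker sum among chow livers, and the part of this in its Lgmn and Gusb values was not tested.

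The KO change differed between the diets by the limma interaction for 20 members. Among proteases it was 2.00 for Lgmn, 1.28 for Ctsz, 1.05 for Ctsd, 0.93 for Ctsa, 0.59 for Tpp1, 0.50 for Ctsk, 0.49 for Ctsl and 0.48 for Ctsb on the log2 scale. Among glycosidases it was 0.96 for Gusb, 0.94 for Hexa, 0.48 for Gla and 0.48 for Man2b1. The lipid hydrolases, activators and granulin gave 0.92 for Grn, 0.69 for Psap, 0.44 for Npc2 and 0.33 for Ppt1. Membrane proteins gave 0.46 for Lamp1 and -0.40 for Lamp2, and V-ATPase subunits 0.98 for Atp6v1b2 and 0.64 for Atp6v1a.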

How the results depend on the processing

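The count of members called on the VLF diet (23) stayed at 22 to 24 when each array was left out in turn, that for the diet in KO livers (22) at 22 to 23, and that for the interaction (20) at 19 to 20. The smaller counts moved: on chow (2) it was 0 to 3, and for the diet in WT livers (3) it was 0 to 4. On chow it was 0 with arrays centred on hybridization controls and 0 when only the groups compared were fitted. For the diet in WT livers it was 1 with median scaling alone, 1 with values as deposited, 0 with the hybridization controls and 0 with only the groups compared. With the replicate number as a block the counts were 23, 1, 22, 2 and 20 for KO versus WT on the VLF diet, on chow, the diet in KO, the diet in WT and the interaction. Only 3 of 20 arrays correlated best with their own number, so the numbers do not pair the livers. The block ended the calls of Lipa on chow, Ctsa for the diet in WT and Ppt1 for the interaction, added that of Scarb2 for the interaction, and changed no other call. On the VLF diet, Glb1 was 0.35 with the hybridization controls and -0.02 as reported, and Scarb2 was 0.051 as the mean of its probe sets and -0.32 as reported. The cause was not tested. Precision is limited by 5 livers per group and, for dim members such as Gla and Ctsk, by low signal.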

Other observations

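The wider lysosomal lists were also read for the diet in KO livers, where 34.7% of all genes were called. V-ATPase subunits rose in 12 of 14 cases and 0 fell, further hydrolases rose in 10 of 24 and fell in 4, membrane and sorting proteins rose in 6 of 16 and fell in 4, TFEB relatives and regulators rose in 5 of 13 and fell in 4, and autophagy genes rose in 7 of 19 and fell in 6. For the interaction, with 24.2% of all genes called, the counts higher and lower were 10 and 0 for V-ATPase subunits, 9 and 2 for hydrolases, 6 and 3 for membrane and sorting proteins, 5 and 2 for TFEB relatives and regulators, and 5 and 4 for autophagy genes.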
